A study of Mus musculus with 6 samples.

Results

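The genes described here are 10 components of cytokine signalling through the JAK-STAT pathway in mouse liver: the shared receptor chain Il6st, the kinases Jak1 and Jak2, the transcription factors Stat3, Stat5a and Stat5b, and the feedback inhibitors Socs1, Socs2, Socs3 and Cish. They were chosen by name, and each of the 10 names had a single row among the 14499 genes of the deposited RNA-seq table. Total liver RNA was measured in 3 libraries from wild-type mice (WT_DDC) and 3 from mice that had lost Arid1a in hepatocytes (Arid1a_KO_DDC), called knockout here. Every mouse was 10 weeks old, came from a C57Bl/6; 129Sv mix and had been injured with DDC, a porphyrinogenic compound that causes cholestatic liver damage, for 2 weeks. The Arid1a protein binds DNA and belongs to BAF, a complex that moves nucleosomes. No uninjured liver is among these groups. The promoter that drove the deletion is not given in the sources used here, so whether cells other than hepatocytes kept Arid1a is not known.

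In this pathway a cytokine or hormone brings receptor chains together, the JAK kinases bound to them phosphorylate the receptor, and STAT proteins dock there, are phosphorylated and enter the nucleus. Il6st (gp130) is the signalling chain for the interleukin-6 family, which acts in hepatocytes mainly through Jak1 and Stat3 and drives the acute phase response. Growth hormone acts through Jak2 and the STAT5 proteins and sets much of the sex-biased expression of the liver. STATs also switch on their own inhibitors: Socs3 binds Il6st and restrains interleukin-6 signalling, Socs1 restrains interferon-gamma signalling, and Socs2 and Cish restrain growth hormone signalling.

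Short stretches from 3 start regions are shown first, those of Cish, Socs1 and Socs3, the genes of the 10 whose windows held a match to the motifs given below. They were taken from the RefSeq promoter windows on GRCm38.p6, which run from 250 bases before to 50 bases after an annotated start site. Each is written 5′ to 3′ on the strand of the gene, with capitals marking letters that match TTCNNNGAA, the palindromic core bound by STAT dimers, or a pair of GAAA words separated by 2 bases of any kind, the core of interferon-responsive elements, searched on both strands.
Cish, chr9:107296579-107296678, plus strand, from 80 bases before the start site to base 20 after it: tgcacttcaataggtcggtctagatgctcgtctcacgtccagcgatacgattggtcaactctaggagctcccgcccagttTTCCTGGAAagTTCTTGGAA
Socs3, chr11:117969467-117969566, minus strand, which ends upstream of the start site: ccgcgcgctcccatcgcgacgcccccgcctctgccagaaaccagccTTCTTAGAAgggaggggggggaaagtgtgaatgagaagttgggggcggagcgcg
Socs1, chr16:10785537-10785636, minus strand, from 100 bases to 1 base before the start site: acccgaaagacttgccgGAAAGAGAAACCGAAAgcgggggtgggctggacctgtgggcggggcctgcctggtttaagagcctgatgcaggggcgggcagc
Windows were found for 9 of the 10 genes, all but Socs2. TTCNNNGAA was present in those of Cish, with 2 matches beginning at bases 1 and 12 after the RefSeq start site, and of Socs3, with 1 match at -154. It was present in 8.3% of all 32851 windows. The GAAA pair was present in the window of Socs1 alone among the 10 genes, as overlapping matches at -83 and -77, and in 3.44% of all windows. A match describes the letters and shows no binding.

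The libraries were similar in the number of genes detected, with 11280 to 11712 genes at an FPKM of at least 1 (fragments scaled to transcript length and library size), and their depth is unknown. Arid1a itself was at 6.44 ± 1.25 FPKM in wild-type livers and 5.14 ± 1.41 FPKM in knockout livers (SD, n = 3 each; limma adjusted p = 0.678), with overlapping groups; a gene-level value covers exons outside the deleted part too, and is no check of genotype. The library numbers in the labels fall into L0566 and L0567, which are replicate 1 of the 2 groups, and L0602 to L0605, which are the rest. The Y-linked gene Ddx3y was at 0.0527 and 0.0227 FPKM in replicate 1 of wild type and knockout and at 9.27 to 11.3 FPKM in the other 4 libraries, so library number and the presence of Y-linked transcripts cannot be told apart. Nothing in the labels says that the libraries came from separate mice, so the p-values cover library-to-library spread, which may be technical. The 10 hepatocyte markers summed to 43604 to 46793 FPKM in wild-type livers and 46501 to 57512 FPKM in knockout livers, with the highest sum in knockout replicate 3. Such a sum in total liver RNA is no check of cell identity.

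In knockout livers the inhibitors Socs1, Socs2 and Socs3, the receptor chain Il6st and Stat5a had lower transcript levels in each of the 3 libraries than in any wild-type library, whereas Jak1, Jak2, Stat3, Stat5b and Cish overlapped between the groups. None of these differences passed an adjusted p of 0.05 over the 11839 genes tested. By limma, 0 of the 10 genes passed, against 0.49% of all genes tested in either direction and 0.355% in the lower direction. At an unadjusted p under 0.05, 4 of the 10 were lower (Socs1, Socs3, Il6st and Socs2) and 0 higher, against 6.5% of all genes lower and 4.65% higher. The 5 genes with groups that did not overlap were all lower in knockout, and over all genes tested 9.56% were lower and 7.09% higher in this way. The difference was below 0 for 9 of the 10, against 49.4% of all genes, and its median was -0.32 on the log2(FPKM + 1) scale, against 0.0034 over all genes. In total liver RNA, fewer cells of a type and less RNA per cell cannot be told apart.

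**Figure D1:**
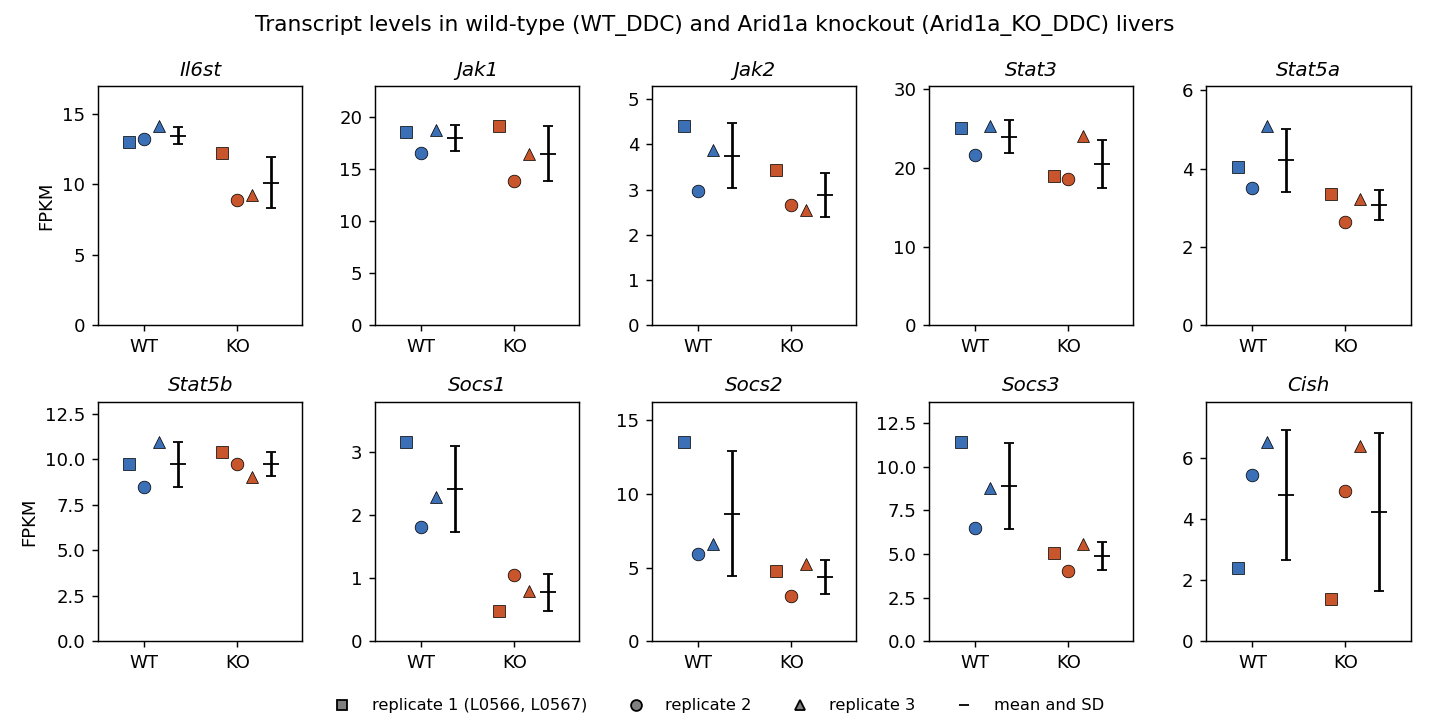
Level of each of the 10 genes in FPKM (vertical axes, from 0) in the 3 wild-type (WT, blue) and 3 knockout (KO, orange) libraries; symbols mark the replicate number, and the bar is the mean with its SD (n = 3). The knockout points lie below all wild-type points for Il6st, Stat5a, Socs1, Socs2 and Socs3, and for Cish the squares of replicate 1 lie below the other points in both genotypes.

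Per unit of transcript length, Stat3 was the most abundant of the 10 and Socs1 the least. Mean levels over the 6 libraries were 22.3 FPKM for Stat3, 17.2 for Jak1, 11.8 for Il6st, 9.74 for Stat5b, 6.89 for Socs3, 6.51 for Socs2, 4.52 for Cish, 3.64 for Stat5a, 3.32 for Jak2 and 1.6 for Socs1. The median gene tested had a mean of 7.91 FPKM, so that Stat3, Jak1, Il6st and Stat5b were above it and the other 6 below. Jak1 was above Il6st, and Jak2 above Socs1, in 6 of 6 libraries. Stat3 was above Jak1, Il6st above Stat5b, Stat5b above Socs3 and Socs3 above Socs2 in 5 of 6. The neighbours Socs2 and Cish, and Cish and Stat5a, kept their order in 4 of 6, and Stat5a and Jak2 in 3 of 6, which gives no order between them.

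Il6st (ENSMUSG00000021756, chromosome 13, 112464070 to 112510086 on GRCm38; all 10 genes are protein coding) was at 13.01, 13.2 and 14.1 FPKM in wild-type replicates 1, 2 and 3 and at 12.2, 8.88 and 9.24 FPKM in the knockout replicates. The 3 wild-type libraries lay close together, and the knockout library nearest to them was replicate 1. The mean was 13.4 ± 0.585 FPKM in wild-type livers and 10.1 ± 1.81 FPKM in knockout livers (log2 difference -0.39, SE 0.15, limma adjusted p = 0.423; exact permutation p = 0.1, the smallest that 3 against 3 libraries allow). The difference was -0.09 between the replicate 1 libraries and -0.54 within the 4 libraries L0602 to L0605.

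On the log2(FPKM + 1) scale the kinases had smaller differences than the receptor chain, but for Jak2 this order was not stable. The knockout to wild-type ratio of means was 0.768 for Jak2 and 0.752 for Il6st. Without wild-type replicate 2 their log2 differences were -0.41 and -0.40. The difference between genes was not tested. Jak1 (chromosome 4, 101152367 to 101265282), which serves interleukin-6 and interferon receptors, was at 18.5, 16.6 and 18.8 FPKM in wild-type livers and at 19.1, 13.8 and 16.4 FPKM in knockout livers. The highest and the lowest of these 6 values were both from knockout livers, and knockout minus wild type was -0.13 on the log2 scale (SE 0.15, limma adjusted p = 0.802). Jak2 (chromosome 19, 29251828 to 29313080), the kinase of the growth hormone receptor, was at 4.40, 2.98 and 3.88 FPKM in wild-type livers and at 3.43, 2.67 and 2.55 FPKM in knockout livers. Wild-type replicate 2 alone lay within the range of the knockout libraries, and the difference was -0.29 (SE 0.18, limma adjusted p = 0.607). Jak1 was 4.21 to 6.45 times as abundant per length as Jak2 in the 6 libraries.

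Among the STAT genes Stat5a was lower in all knockout libraries, and Stat5b was level. Stat3 (chromosome 11, 100885098 to 100939540), the main factor downstream of Il6st, was at 25.1, 21.6 and 25.3 FPKM in wild-type livers and at 18.9, 18.6 and 24.1 FPKM in knockout livers. Knockout replicate 3 lay among the wild-type values and the other 2 knockout libraries below them (log2 difference -0.22, SE 0.15, limma adjusted p = 0.646). Stat5a (chromosome 11, 100859351 to 100885169) was at 4.04, 3.52 and 5.08 FPKM in wild-type livers and at 3.35, 2.64 and 3.23 FPKM in knockout livers. The groups were separated by a small gap, between wild-type replicate 2 and knockout replicate 1 (log2 difference -0.35, SE 0.17, limma adjusted p = 0.500).

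Stat5b (chromosome 11, 100780731 to 100850724), the predominant STAT5 of hepatocytes, was at 9.77, 8.46 and 10.95 FPKM in wild-type livers and at 10.4, 9.77 and 9.06 FPKM in knockout livers. The means were 9.73 ± 1.25 and 9.75 ± 0.68 FPKM (log2 difference 0.0073, SE 0.14, limma adjusted p = 0.989), and the sign of this difference turned when wild-type replicate 2 or knockout replicate 1 was left out. Stat5b was 2.42, 2.41 and 2.15 times as abundant as Stat5a in the wild-type libraries and 3.11, 3.70 and 2.81 times in the knockout libraries. These ratios did not overlap between the groups; they were chosen among 4 ratios after the values were seen and are given as a description. The 2 STAT5 genes are neighbours of similar sequence, with start sites 8627 bases apart, so the share of fragments assigned to each is uncertain. Stat5a and Stat3 lie on opposite strands and share 72 bases at their 3′ ends, and the sources used here do not say whether the libraries kept the strand.

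On the log2(FPKM + 1) scale Socs1 had the lowest difference of the 10 genes, a rank that Socs2 took with a pseudocount of 5 FPKM (-0.51 against -0.36) and without knockout replicate 1 (-0.86 against -0.82). Socs1 (ENSMUSG00000038037, chromosome 16, 10782240 to 10785536) was at 3.16, 1.82 and 2.29 FPKM in wild-type livers and at 0.478, 1.06 and 0.789 FPKM in knockout livers. Every knockout value was under every wild-type value, and at least 1 FPKM was reached in 3 wild-type libraries and 1 knockout library, so that wild type alone would have carried the gene past the filter on low values. The mean was 2.42 ± 0.681 FPKM in wild-type livers and 0.774 ± 0.289 FPKM in knockout livers, a ratio of 3.13 (log2 difference -0.94, SE 0.21, limma adjusted p = 0.157; exact permutation p = 0.1). The difference was -1.49 between the replicate 1 libraries and -0.67 within L0602 to L0605. On this low level the pseudocount sets the size: it was -1.55 with a pseudocount of 0.1 FPKM and -0.36 with 5 FPKM.

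Socs3 (ENSMUSG00000053113, chromosome 11, 117966079 to 117970047) was at 11.4, 6.52 and 8.77 FPKM in wild-type livers and at 5.03, 4.02 and 5.58 FPKM in knockout livers. The knockout libraries lay within a narrower range, all below the lowest wild-type library. The mean was 8.9 ± 2.45 FPKM in wild-type livers and 4.88 ± 0.794 FPKM in knockout livers, a ratio of 1.82 (log2 difference -0.73, SE 0.22, limma adjusted p = 0.283; exact permutation p = 0.1). Relative to Stat3, Socs3 was at 0.454, 0.301 and 0.346 in wild type and at 0.266, 0.215 and 0.232 in knockout, again without overlap.

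Socs2 (ENSMUSG00000020027, chromosome 10, 95385362 to 95417180) was at 13.5, 5.90 and 6.58 FPKM in wild-type livers and at 4.75, 3.06 and 5.25 FPKM in knockout livers. Wild-type replicate 1 was about as far above the other wild-type libraries as these were above 0, and the gap between the groups, from 5.25 to 5.90 FPKM, was small. The means were 8.67 ± 4.22 and 4.35 ± 1.15 FPKM (log2 difference -0.79, SE 0.32, limma adjusted p = 0.430; exact permutation p = 0.1). Without wild-type replicate 1 the difference was -0.46, and without any replicate 1 library it was -0.52. Over the 6 libraries Socs2 had the patterns most like those of Map4k3 (Pearson r = 0.992), Dhdds (0.987) and Med8 (0.984), the highest of 6987 genes with a mean of at least 5 FPKM. These r values were picked as the largest over many genes in 6 libraries and carry no test.

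**Figure D2:**
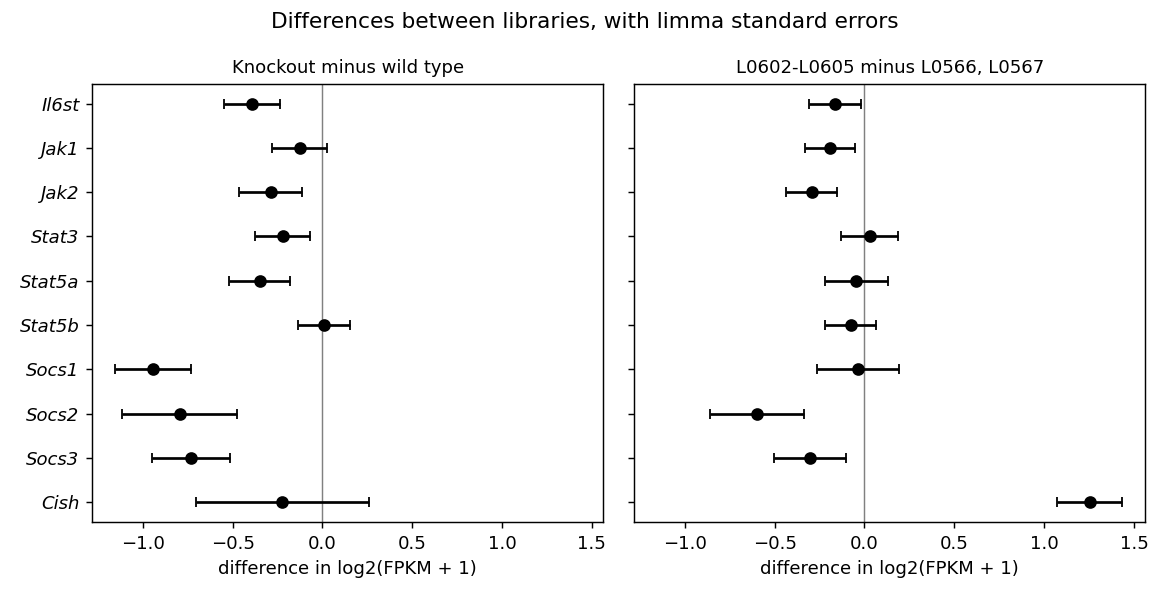
Differences in log2(FPKM + 1) for the 10 genes (points) with limma standard errors (bars), for knockout minus wild type on the left and for libraries L0602 to L0605 minus L0566 and L0567 on the right. By genotype Socs1, Socs2 and Socs3 are the lowest at -0.94, -0.79 and -0.73, and by library number Cish stands at 1.25 with every other gene between -0.60 and 0.03.

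Cish separated the libraries by number and not by genotype. Cish (ENSMUSG00000032578, chromosome 9, 107296026 to 107302784) was at 2.41, 5.46 and 6.54 FPKM in wild-type livers and at 1.38, 4.92 and 6.42 FPKM in knockout livers. Both replicate 1 libraries were low and the other 4 high, and the genotypes overlapped (log2 difference -0.22, SE 0.48, limma adjusted p = 0.898); the sign of the genotype difference turned without wild-type replicate 3 or knockout replicate 1. With genotype in the model, L0602 to L0605 were above L0566 and L0567 by 1.25 (SE 0.18), from a mean of 1.9 to 5.84 FPKM, a ratio of 3.07. This did not pass over all genes (limma adjusted p = 0.0756), where 15 of 11839 genes, or 0.127%, passed and 21.3% had an unadjusted p under 0.05. Cish was the 1 gene of the 10 whose level was higher in all 4 of these libraries, against 17.2% of all genes tested, and 0 of the 10 were lower in all 4, against 11.3%. The antisense predicted genes Gm17040 and Gm17041 share 1167 and 1459 bases with Cish, and without strand their fragments cannot be told from those of Cish.

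The genes most like Cish over the 6 libraries were Cmbl (Pearson r = 0.992), Ttc17 (0.990) and Rilp (0.990), by the same rule among 6988 genes. Cmbl, a hydrolase gene, was at 102, 141 and 152 FPKM in wild-type livers and at 79.0, 138 and 165 FPKM in knockout livers, low in both replicate 1 libraries as Cish was. Of the other growth hormone inhibitor, Socs2, the difference by library number was of the opposite sign to that of Cish (-0.60, SE 0.26, limma adjusted p = 0.256). For the remaining 8 genes it was between -0.30 and 0.03, with limma adjusted p-values of 0.294 to 0.939. The difference between the knockout effects in the 2 sets of library numbers, as an interaction term in limma, passed for 0 of the 10 genes (adjusted p of 0.55 to 0.999) and for 0% of all genes, of which 9.05% had an unadjusted p under 0.05. It was 0.83 for Socs1 (SE 0.32) and 0.81 for Socs2 (SE 0.42), both less negative in L0602 to L0605. The effect in L0566 and L0567 rests on 1 wild-type and 1 knockout library, which are assumed to vary like the other 4.

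Of 25 growth hormone and STAT5 target genes listed besides Socs2 and Cish, 18 were tested. By library number 14 were above 0 with a median of 0.78, against 0.0438 over all genes; 11 were higher and 2 lower in all 4 libraries L0602 to L0605, against 17.2% and 11.3% of all genes, and 0 passed by limma. Sult2a1, a sulfotransferase with female-biased expression, was at 52.7 and 38.8 FPKM in replicate 1 of wild type and knockout and between 0 and 2.80 FPKM in the other 4 libraries (-4.98, SE 0.55, limma adjusted p = 0.0534). Selenbp2, which is male-biased, was at 96.8 and 127 FPKM in the replicate 1 libraries and at 184 to 995 FPKM in the others (2.02, SE 0.39, adjusted p = 0.103). Cyp7b1, an oxysterol hydroxylase, was at 1.17 and Cyp2a4, a steroid hydroxylase, at 1.03 (adjusted p = 0.116 and 0.105). Several of these genes have close paralogs, so the assignment of fragments is uncertain for Sult2a1, Selenbp2 and Cyp2a4. The list holds both female- and male-biased genes, and the bias of the others, Cyp7b1 and Cyp2a4 among them, is not given here. Its counts and medians, by library number or by genotype, therefore show no single direction of growth hormone signalling.

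By genotype the same list had a median of 0.44, against 0.0034 over all genes, with 13 of 18 above 0. Below 0 were 5 of 18, against 49.4% of all genes, and 0 passed by limma, against 0.49%. In every knockout library 2 were higher, Onecut1 and Acot3, and 0 lower, against 7.09% and 9.56% of all genes. Onecut1, a liver transcription factor, was at 0.419, 0.330 and 0.854 FPKM in wild-type livers and at 1.05, 3.01 and 2.62 FPKM in knockout livers (1.03, SE 0.29, limma adjusted p = 0.259). It reached 1 FPKM in knockout libraries alone, so it passed the filter only through the group where it is high. Acot3, Selenbp2 and Slco1a1 had differences of 0.50, 1.45 and 1.55 (adjusted p = 0.541, 0.564 and 0.612). Slco1a1, an organic anion transporter, ranged from 0.127 to 6.49 FPKM within wild type and from 1.31 to 18.5 FPKM within knockout.

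**Figure D3:**
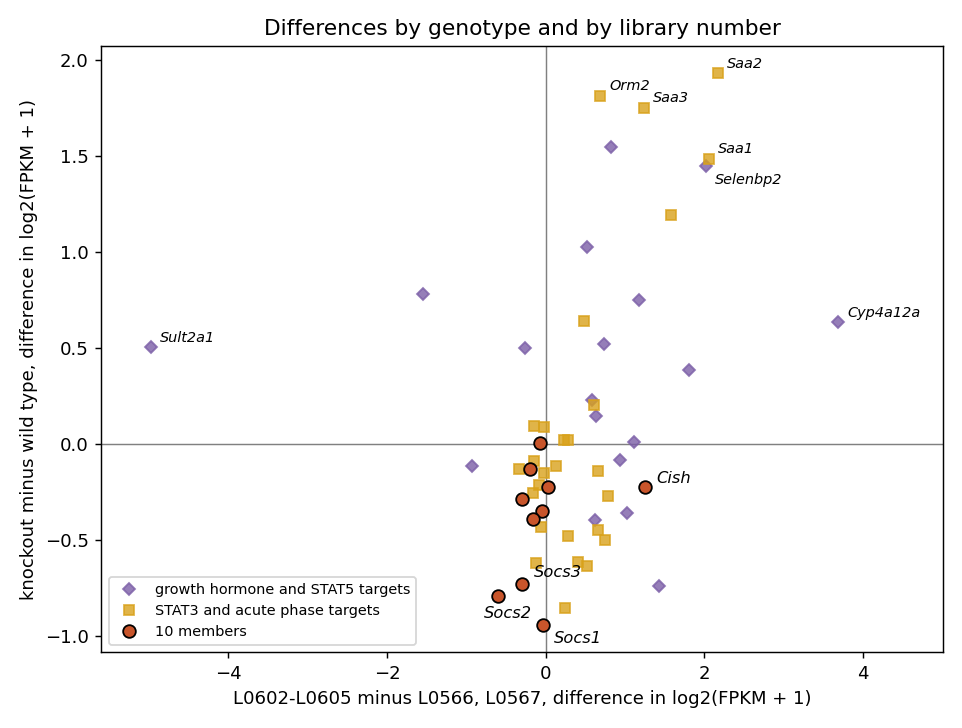
Knockout minus wild type difference (vertical axis) against the difference between libraries L0602 to L0605 and L0566, L0567 (horizontal axis), both in log2(FPKM + 1), for the 10 genes (circles) and the tested genes of the growth hormone list (diamonds) and acute phase list (squares). Cish lies at 1.25 to the right near the genotype zero line, Socs1, Socs2 and Socs3 lie near the bottom, and Saa2, Orm2 and Saa3 lie at the top.

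Targets of STAT3 and the acute phase response showed no common direction beside the lower Socs3. Of 27 tested, 16 were below 0 by genotype, against 49.4% of all genes, and 11 above. The median was -0.13, against 0.0034 over all genes, and 0 passed by limma, against 0.49%. In every knockout library 3 were lower and 3 higher, against 9.56% and 7.09% of all genes. Junb, an AP-1 gene induced early by interleukin-6, was at 39.3, 39.1 and 37.0 FPKM in wild-type livers and at 16.0, 22.5 and 24.9 FPKM in knockout livers, without overlap (-0.86, SE 0.18, limma adjusted p = 0.136). The secreted acute phase genes Orm2 and Saa3 were higher in every knockout library, by 1.82 (SE 0.38, adjusted p = 0.136) and 1.75 (SE 0.49, adjusted p = 0.251), and Apcs was lower in each, by -0.62 (adjusted p = 0.289). Saa3 passed with a term for library number (adjusted p = 0.0355) and within L0602 to L0605 (adjusted p = 0.0475). The fibrinogen genes Fga, Fgb and Fgg were between -0.13 and 0.09.

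By library number the acute phase list had a median of 0.28, and 7 of 27 genes were higher and 1 lower in all 4 libraries L0602 to L0605, against 17.2% and 11.3% of all genes. Saa2, Saa3, Saa1 and Saa4 had the smallest p, with differences of 2.17, 1.24, 2.06 and 1.58 (adjusted p = 0.0725, 0.0949, 0.102 and 0.106). Saa genes resemble each other, as do Orm1 and Orm2, so the values of single copies are uncertain. Orm1 had a genotype difference of -0.27, of the opposite sign to Orm2.

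Of the genes induced by interferon-gamma, the signal that Socs1 restrains, 1 of 20 tested besides Socs1 passed by limma, against 0.49% of all genes. In all 19 of 20 were below 0, against 49.4% of all genes, and the median was -0.53. In every knockout library 8 were lower, against 9.56% of all genes, and 0 higher, against 7.09%. The T and NK cell markers (6 of 6 tested) and macrophage markers (10 of 10) were below 0 in the same comparison, and their part in these values was not tested. Cxcl9, a T cell chemokine, was the gene that passed and fell from 38.7 ± 6.45 to 9.36 ± 2.68 FPKM (-1.96, SE 0.22, limma adjusted p = 0.0277). This call was lost without wild-type replicate 2, wild-type replicate 3, knockout replicate 2 or knockout replicate 3, with no filter on low values, and with a replicate block, where 0 genes of the list passed. Irf1, the transcription factor that binds interferon-responsive elements, was at 35.3, 30.1 and 32.2 FPKM in wild-type livers and at 15.3, 20.4 and 17.8 FPKM in knockout livers (-0.84, SE 0.15, adjusted p = 0.0944). Gbp4, an interferon-inducible GTPase, was at -1.26 and Ciita, the coactivator of MHC class II genes, at -0.72 (adjusted p = 0.287 and 0.292). Ciita, 1 of the 8 above, reached 1 FPKM in wild-type libraries alone and so passed the filter only through the group where it is high.

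The receptor chains of the pathway had a median of -0.34 over 21 tested, with 15 below 0, against 49.4% of all genes. In every knockout library 4 were lower and 1 higher, against 9.56% and 7.09% of all genes. Some chains, such as Csf2rb, are expressed mainly by leukocytes, and the part of the lower leukocyte marker levels given below was not tested. Ifngr1, the ligand-binding chain for interferon-gamma, was at 27.2, 32.3 and 34.4 FPKM in wild-type livers and at 14.5, 16.9 and 16.8 FPKM in knockout livers (means 31.3 ± 3.73 and 16.1 ± 1.39 FPKM). Its difference was -0.92 (SE 0.15, limma adjusted p = 0.0659), and it passed with a term for library number (adjusted p = 0.0347) and after quantile normalization (adjusted p = 0.0463). Osmr, which pairs with Il6st to bind oncostatin M, was at 2.69 ± 0.585 and 1.38 ± 0.211 FPKM (-0.62, SE 0.18, adjusted p = 0.262). Csf2rb, the shared beta chain of haematopoietic cytokine receptors, was at -0.70 and Il11ra1, another partner of Il6st, at 0.46 (adjusted p = 0.283 and 0.326). The receptors Il6ra, Lifr and Ghr had differences of 0.21, 0.11 and 0.099; these 3 were picked after their values were seen, as direct partners of the 10 genes.

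Of the other kinases and STAT factors on the list 4 were tested, with a median of -0.19, and 0 passed by limma. Stat2, which acts downstream of type I interferon, had a difference of 0.37 (adjusted p = 0.563), Stat6, the factor of interleukin-4, of -0.34 (adjusted p = 0.589), Tyk2 of -0.23 (adjusted p = 0.677) and Jak3, the kinase of lymphocyte cytokine receptors, of -0.15 (adjusted p = 0.911). Other SOCS, PIAS and phosphatase inhibitors had a median of -0.14 over 16 tested, of which 10 were below 0 and 2 were lower in every knockout library, shares near the 49.4% and 9.56% of all genes. Their lowest p-values belonged to Cblb, Pias2, Ptprc and Cbl, with differences of -0.33, -0.23, -0.33 and -0.24 (adjusted p of 0.487 to 0.653). The SOCS genes outside the 10, Socs4, Socs5, Socs6 and Socs7, were at 0.11, 0.17, -0.18 and -0.19, smaller than Socs1, Socs2 and Socs3; the difference between these SOCS genes was not tested.

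Of 16 cytokine ligands listed, 5 had a row in the table and 4 were tested, with a median of -0.17. Ctf1, a ligand of the interleukin-6 family, was at 1.73 ± 0.398 and 2.83 ± 0.611 FPKM, higher in every knockout library (0.49, SE 0.19, limma adjusted p = 0.411). Clcf1 and Il15 had differences of -0.70 and -0.54 and Thpo of 0.20 (adjusted p of 0.572 to 0.753). Il6, Osm and Ifng had no row, so their levels were not analysed here.

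**Figure D4:**
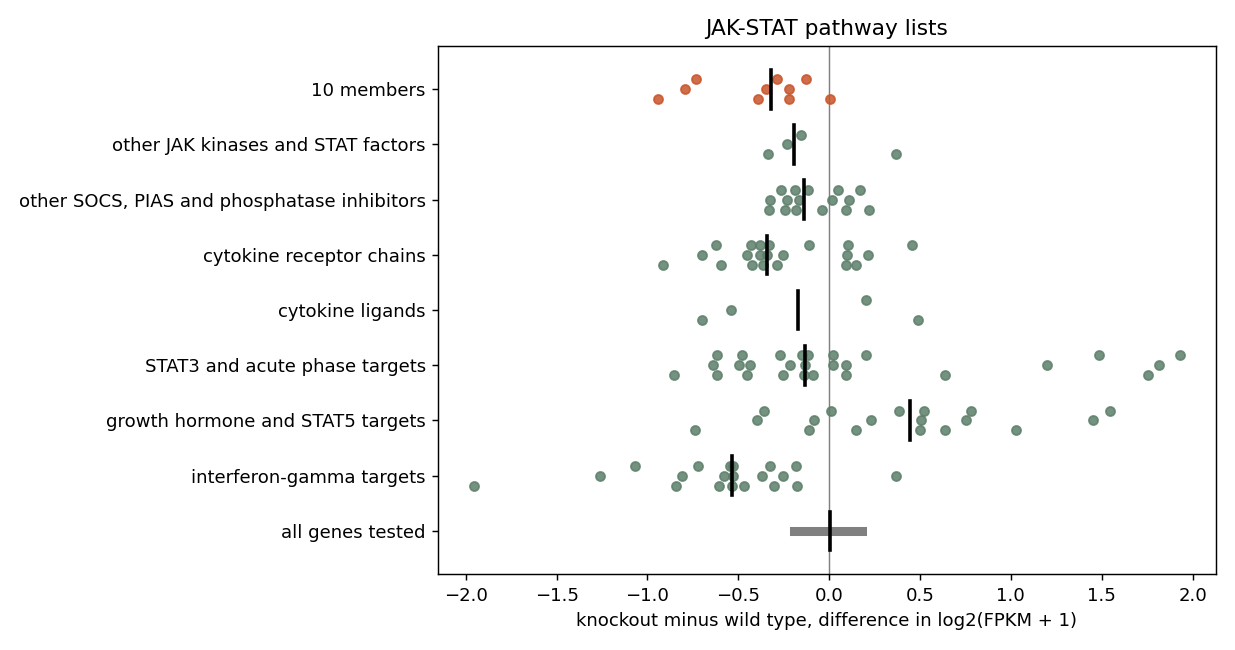
Knockout minus wild type differences in log2(FPKM + 1) (horizontal axis) for the tested genes of each list (dots, 1 per gene, with vertical offsets for legibility), with the median as a black bar; the grey bar spans the middle 50 percent of all genes tested. The median is -0.32 for the 10 genes, -0.53 for the interferon-gamma list, -0.34 for receptor chains and 0.44 for the growth hormone list, against 0.0034 for all genes.

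Most markers of the cells other than hepatocytes had differences below 0 in knockout livers, as 9 of the 10 genes did. The 10 macrophage markers summed to 566.7 to 704 FPKM in wild-type livers and 346 to 526 FPKM in knockout livers, 10 of 10 were below 0 and 0 passed by limma. Of 10 neutrophil markers 4 had a row, and their sum was 33.5 to 59.5 FPKM in wild-type livers and 14.0 to 27.4 FPKM in knockout livers. T and NK cell markers summed to 18.1 to 26.8 FPKM in wild-type livers and 4.06 to 19.97 FPKM in knockout livers, with Trac listed at 0 in knockout replicate 3. Stellate cell markers summed to 205 to 299.7 FPKM and 125 to 220.4 FPKM, with 9 of 10 below 0 (median -0.54). Sinusoidal endothelial markers summed to 70.0 to 118 FPKM and 41.5 to 105.7 FPKM, with 9 of 9 below 0 (median -0.48). Cholangiocyte markers had overlapping sums, 146 to 421 FPKM and 224 to 437 FPKM, with the highest sum in knockout replicate 3, but 8 of 9 were below 0 (median -0.61). In this list 2 passed by limma as lower, against 0.355% of all genes, the only calls among the marker lists. These 2 calls were not followed under the alternatives below. B and plasma cell markers summed to 1539 to 5525 FPKM in wild-type livers and to 24.1, 7702 and 26.9 FPKM in the knockout replicates 1, 2 and 3. Knockout replicate 3 had the lowest sum of macrophage, T and NK cell, stellate and sinusoidal endothelial markers and the highest of hepatocyte markers. It did not have the lowest sum of neutrophil, cholangiocyte or B and plasma cell markers. The part of these cells in the lower levels of the 10 genes was not tested.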

How the data were processed

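Values per gene and library were deposited by the authors as log2 FPKM in a single table. TopHat2 2.0.6, Cufflinks, mm10 and GRCm38 are named in the submitters' processing notes, without roles; annotation, strand setting and rule for including genes: not given in the sources used here. An offset of 0.000977 had been added before the logarithm, so that -10 stands for 0 FPKM, which can be a failed estimate; it was subtracted. No absolute depth could be derived.

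Knockout and wild type were compared on log2(FPKM + 1) for genes with at least 1 FPKM in at least 3 of 6 libraries, with limma 3.58.1 in R 4.3.3 (eBayes with a trend, two-sided), Benjamini-Hochberg adjustment over 11839 genes and a threshold of 0.05. A log2 difference on this scale understates changes at low FPKM. Library number sets were compared with genotype as a covariate, and an interaction term was fitted separately. Adjusted p-values are from these fits. The fits were also run on simulated data with independent noise in each library. Such data cannot show how the fits behave where libraries vary together.

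Where a name had several rows, the highest mean was kept. All 10 genes are named. Of each list up to 4 genes with the smallest p are named (for the growth hormone and acute phase lists also by library number); the fibrinogen genes, Orm1, Socs4 to Socs7, Il6ra, Lifr and Ghr were picked with their values known. Genes most alike are the 3 with the highest Pearson r. The 10 genes and the lists were chosen with earlier results of these data known. Positions are from GENCODE M21, promoter windows from RefSeq. Alternatives covered pseudocounts, filters, scaling, eBayes settings, a replicate block, library number, and leaving out each library. A gene was taken out of 2 lists after the analysis and is not reported here.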

Additional observations from a re-analysis of the deposited data

How the results depend on the processing

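None of the 10 genes passed the threshold under any of the 17 alternatives for genotype or the 14 for library number. Socs1, Socs2, Socs3, Il6st, Stat5a, Jak1, Jak2 and Stat3 were below 0 by genotype in each one that tested them; Socs1, Stat5a and Jak2 were not tested at the filter of 5 FPKM. The genotype difference of Stat5b was -0.031 within L0602 to L0605 and -0.080 to 0.089 with 1 library left out, and that of Cish -0.57 to 0.27 with 1 library left out.

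By library number Cish was at 0.65 to 1.61. Differences near 0 turned sign: Socs1 was at 0.10 with a pseudocount of 0.1 FPKM and at -0.45 to 0.38 with 1 library left out. Stat3 was at -0.0034 with median-of-ratios scaling, -0.068 with quantile normalization and -0.10 to 0.15 with 1 library left out. With 1 library left out Stat5a was at -0.15 to 0.057 and Il6st at -0.39 to 0.064.

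The genotype comparison called 58 genes of all tested, 12 with no filter, 92 with a term for library number, 0 with the replicate block and 0 to 67 with 1 library left out (0 without Arid1a_KO_DDC replicate 3, 2 without WT_DDC replicate 3, 6 without WT_DDC replicate 2 and 35 without WT_DDC replicate 1). The library number comparison called 15, or 24 with a pseudocount of 0.1 FPKM, 4 with no filter, 24 with quantile normalization, 30 with robust estimation and 3 to 11 with 1 library left out. Of the interferon-gamma list 1 gene was called, 0 with no filter, 0 with the replicate block and 0 to 1 with 1 library left out. Of the receptor chains 1 gene was called with quantile normalization and 1 with a term for library number, and of the acute phase list 1 with that term and 1 within L0602 to L0605, against 0 as reported. The count of genes lower in every knockout library, 5 of 10, was followed in alternatives added after seeing the data. It was 5 with median-of-ratios scaling and 4 with quantile normalization. Leaving libraries out cannot lower this count, so its values of 5 to 7 there are no check of it.

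The labels do not pair same-numbered libraries. Deviations from the group means correlated at 0.35 for replicate 1, whose libraries also share the set L0566 and L0567 and near-absent Ddx3y. They correlated at 0.13 for replicate 2 and at 0.021 for replicate 3. Between libraries of different number the correlations were -0.31 to 0.26, the highest for wild-type replicate 3 with knockout replicate 2. With the replicate block Socs1 was at a limma adjusted p of 0.242 and Socs3 at 0.195. The causes of these changes were not tested.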
